A study of Mus musculus with 6 samples.

Results

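The genes described here are 10 collagen genes outside the major fibril-forming types, namely Col6a1, Col6a2 and Col6a3 of collagen VI, the fibril-associated Col12a1, Col14a1 and Col16a1, and Col7a1, Col8a1, Col15a1 and Col18a1, which are neither. They were chosen by gene name among the array's non-control probes, with the array values already known, and Col6a3 was chosen by its large difference between TIA1 KO and WT MEF. They are read by 19 of the 55681 probes and make up 10 of the 34797 gene names on the array. RNA came from immortalized murine embryonic fibroblasts (MEF), cells grown out of mouse embryos, and was labelled with a single dye on Agilent SurePrint G3 Mouse arrays, with 2 arrays for each of 3 groups. WT MEF carry both genes of the TIA proteins and are labelled with the strain/background W4. TIA1 KO MEF lack Tia1 and are labelled BALB/c, and TIAR KO MEF lack Tial1, the gene of TIAR, and are labelled C57BL/6. Genotype, strain and cell line therefore cannot be told apart. The paper describes the arrays of a group as independent experiments on separate biological samples. Whether these are separate cultures or passages of 1 line is not detailed. The error measures the spread between these samples and cannot be read as a spread between lines of a genotype. All 6 arrays lay on 1 slide, with both TIA1 KO arrays in another row than the other 4, so the effect of the slide's rows cannot be told apart from that of the TIA1 KO group.

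Collagens are triple helices of chains in which glycine recurs in each triplet of residues. Collagen VI joins the chains of Col6a1, Col6a2 and Col6a3 into beaded filaments around cells, and in the usual assembly no filament forms when one of these chains is missing, which is why loss of any of them causes the same group of muscle diseases. The fibril-associated collagens sit on the surface of collagen I fibrils, collagen VII forms the anchoring fibrils that hold epidermis to dermis, collagen VIII builds sheet-like networks, and collagens XV and XVIII lie in basement membrane zones, where the C-terminal end of collagen XVIII is released as endostatin. TIA1 and TIAR are RNA-binding proteins that act on splicing and translation.

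Of the 60-base probes, 3 of the 19 carry at least 4 glycine codons, spaced as in the collagen triplet, in an unbroken run, against 29 of all 55681 probes (0.0521%). They are shown because their letters read as the collagen repeat of the chain, with the glycine codons of that run in capitals.
Col14a1, first probe: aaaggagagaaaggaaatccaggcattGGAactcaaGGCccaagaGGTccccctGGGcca
Col15a1, first probe: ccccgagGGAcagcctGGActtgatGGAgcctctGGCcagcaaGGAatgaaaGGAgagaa
Col16a1, the third probe: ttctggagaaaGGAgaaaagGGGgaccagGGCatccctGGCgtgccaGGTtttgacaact
The other 16 probes are named by position only. Probe positions below refer to mm9, as annotated in the scanner output.

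Promoter windows of the 3 collagen VI genes are shown because these genes were read higher together in both KO groups. Each holds the 250 bases before an annotated start, from RefSeq on GRCm38.p6, with matches in capitals. The motifs searched on both strands were the TATA box TATAAA, the CCAAT box, the GC box GGGCGG and the AP-1 letters TGANTCA.
Col6a1, chr10:76726045-76726294, minus strand: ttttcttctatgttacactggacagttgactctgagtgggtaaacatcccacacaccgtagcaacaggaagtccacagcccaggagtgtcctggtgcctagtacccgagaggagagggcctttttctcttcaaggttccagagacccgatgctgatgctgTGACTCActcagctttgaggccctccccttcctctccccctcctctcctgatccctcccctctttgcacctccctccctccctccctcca
Col6a2, chr10:76623405-76623654, minus strand: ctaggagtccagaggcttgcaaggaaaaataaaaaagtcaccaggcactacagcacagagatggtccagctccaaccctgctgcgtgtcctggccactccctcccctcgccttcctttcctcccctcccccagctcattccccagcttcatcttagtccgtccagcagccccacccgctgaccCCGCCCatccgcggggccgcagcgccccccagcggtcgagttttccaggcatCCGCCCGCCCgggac
Col6a3, chr1:90843972-90844221, minus strand: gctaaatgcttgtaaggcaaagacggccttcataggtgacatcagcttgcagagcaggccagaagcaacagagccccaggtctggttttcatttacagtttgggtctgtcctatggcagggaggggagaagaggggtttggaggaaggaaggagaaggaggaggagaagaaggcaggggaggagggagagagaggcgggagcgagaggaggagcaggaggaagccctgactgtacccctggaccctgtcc
The Col6a1 window held 1 AP-1 match, 90 bases before the start, and the letters occur in 6.75% of 32851 windows of this length. The Col6a2 window held 3 GC boxes on the reverse strand, at 67, 15 and 11 bases before the start, the last pair overlapping each other, and 32.7% of all windows hold at least 1. A window of another Col6a2 start, chr10:76623631-76623880, held 1 GC box 175 bases before it. The Col6a3 window held none of the 4 motifs. TATAAA, present in 12.4% of all windows, was in none of the 10 windows of the 8 collagen genes that matched, and the GC content of the printed Col6a1, Col6a2 and Col6a3 windows was 56.0, 64.4 and 57.2%, against a median of 52.4% over all windows. Col12a1 and Col14a1 had no entry. These letters are a description of the windows and were not tied to any measurement.

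Before the values, the state of the arrays is given. Between 23569 and 26295 probes were well above background, as the scanner software rates it, on the WT and TIAR KO arrays, but 16021 and 19996 on the TIA1 KO arrays, whose median spot intensity was 458 and 218 against 119 to 152 on the other 4. The paper reports by western blot and RT-PCR that TIA1 and TIAR protein and mRNA were missing from the respective KO MEF. On the arrays, none of 3 Tia1 probes was called in TIA1 KO MEF. The brightest read 10.72 and 8.54 on the WT arrays and 7.87 and 8.44 on the TIA1 KO arrays (limma adjusted p = 0.288), the second was 1.62 lower on the log2 scale with a standard error of 0.42 (limma adjusted p = 0.116), and the third, of another transcript, was 0.87 ± 0.28 higher (limma adjusted p = 0.149). For TIAR, the brightest Tial1 probe was an outlier spot on 1 WT array. It read 13.22 on the other WT array and 9.57 and 11.60 in TIAR KO MEF, and was not called there. The second Tial1 probe read 11.71 and 11.09 in WT and 10.00 and 9.65 in TIAR KO MEF (limma adjusted p = 0.0254). Of 12 fibroblast markers, 10 were well above background on both WT arrays, 11 on both TIA1 KO arrays and 12 on both TIAR KO arrays. Pdgfra was near background on both WT arrays, and Thy1 was so on both TIA1 KO arrays and was well above background on 1 WT array. The summed linear level of these markers was 539000 to 571000 on the WT arrays, 1310000 to 1340000 on the TIA1 KO arrays and 1350000 to 1370000 on the TIAR KO arrays.

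Values are normalized log2 intensities, given for WT replicates 1 and 2, then TIA1 KO replicates 1 and 2, then TIAR KO replicates 1 and 2. A log2 fold change is followed by its standard error, with n = 2 arrays per group throughout. A probe was called, that is, counted as up- or down-regulated, when limma's Benjamini-Hochberg adjusted p over all probes was under 0.05 and the fold change was above 2. Since the genes were chosen with TIA1 KO MEF in view, comparisons that use those arrays are given as a description without p-values. Col6a3 was chosen by its TIA1 KO values, but the TIAR KO values were also known when the genes were chosen. TIAR KO MEF were also compared with the same WT arrays, so a low WT value raises both comparisons. The TIAR KO p-values for these genes are therefore not free of the choice. More cells of a type and more RNA per cell cannot be told apart in such samples.

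**Figure D1:**
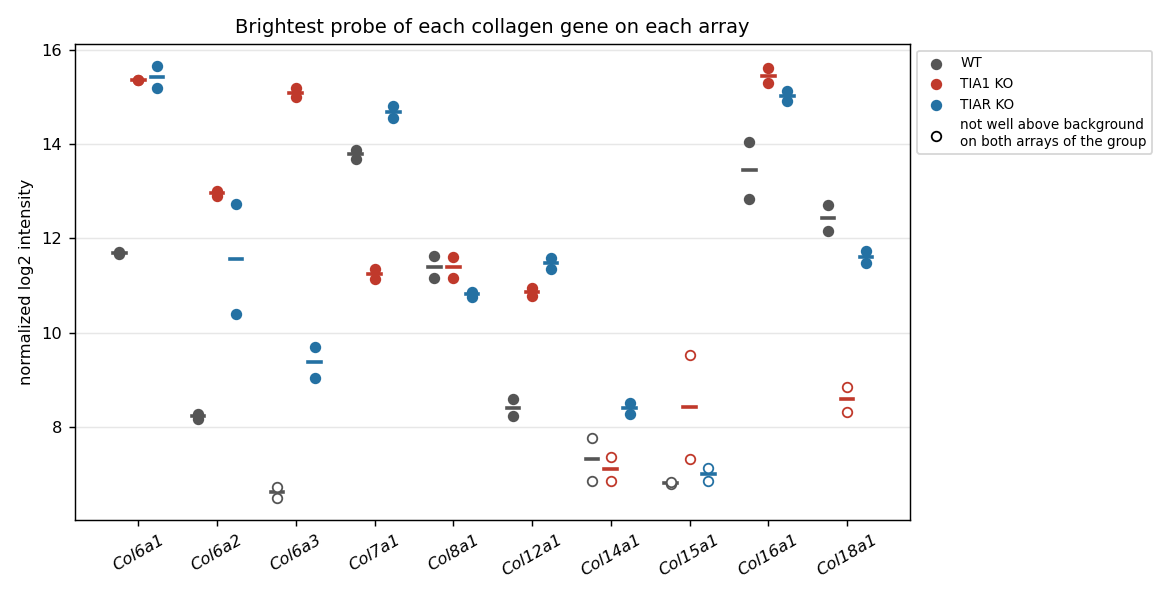
Normalized log2 intensity (vertical axis) of the brightest probe of each of the 10 genes on each of the 6 arrays, in grey for WT, red for TIA1 KO and blue for TIAR KO MEF. Points are arrays, bars are group means, and open points mark a gene that was not well above background on both arrays of that group. Col6a3 lies at 6.50 and 6.74 in WT, at 9.04 and 9.71 in TIAR KO and at 15.00 and 15.18 in TIA1 KO MEF.

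All 3 collagen VI genes read higher in both KO groups than in WT MEF, on every array. Col6a1 (chromosome 10, 76171538 to 76171597), a chain found in every form of collagen VI, read 11.67 and 11.72, then 15.35 and 15.35, then 15.19 and 15.66. Both KO groups lay above WT without overlap, and the TIA1 KO values fell within the TIAR KO ones. In TIAR KO MEF Col6a1 rose by 3.73 ± 0.20 on the log2 scale, 13.2-fold (limma adjusted p = 0.00074). The difference in TIA1 KO MEF was 3.65 ± 0.15, 12.6-fold, and TIAR KO minus TIA1 KO MEF was 0.07 ± 0.22. With arrays scaled to a common median these values were 2.07 and 1.16.

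Col6a2, which lies 113 kb from Col6a1 on chromosome 10 by the positions of their probes, was read by 2 probes. The brighter one (76058931 to 76058990) read 8.18 and 8.29, then 12.90 and 13.01, then 12.73 and 10.40. Both KO groups lay above WT MEF, and the TIAR KO arrays lay far from each other. The log2 fold change in TIAR KO MEF was 3.33 ± 0.73 (limma adjusted p = 0.0602), which missed the threshold. It was 2.16 without TIAR KO replicate 1 and 4.49 without TIAR KO replicate 2. Those fits leave 1 TIAR KO array, so the spread between the TIAR KO arrays drops out of the error. The second probe (76060580 to 76060639) read 7.21 and 7.03, then 9.40 and 9.64, then 8.56 and 8.12, and was near background in WT MEF. It rose in TIAR KO MEF by 1.22 ± 0.20, 2.33-fold (limma adjusted p = 0.0247). For folds given below as at least, readings of the lower group were raised to their array's lowest value rated well above background. Readings already above that value were kept. Both WT readings of this probe lay above those values, 7.18 and 6.59, without being so rated. Such a fold is therefore no strict lower limit. The differences of these probes in TIA1 KO MEF were 4.72 ± 0.16, 26.4-fold, and 2.40 ± 0.18, 5.28-fold.

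Col6a3 (chromosome 1, 92663663 to 92663722), the longest and most spliced of these chains, read 6.74 and 6.50, then 15.00 and 15.18, then 9.04 and 9.71. The 3 groups did not overlap, and WT was near background on both arrays. In TIAR KO MEF it rose by 2.76 ± 0.26 (limma adjusted p = 0.00412), at least 5.63-fold. The fold depends on how low WT is set, and the log2 difference was 5.26 with the scanner software's processed intensities. Against WT, the contrast that put this gene among those described, TIA1 KO MEF differed by 8.47 ± 0.18, at least 295-fold. TIAR KO minus TIA1 KO MEF was −5.71 ± 0.28, 52.5-fold lower in TIAR KO MEF, and the brighter Col6a2 probe gave −1.39 ± 0.81 in the same comparison. The KO groups thus lay apart for Col6a3 and overlapped for Col6a1, while for Col6a2 both TIAR KO arrays lay below both TIA1 KO arrays.

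Among the fibril-associated collagens, Col12a1, which decorates collagen I fibrils in tendon and dermis, was also higher in both KO groups. Its brighter probe (chromosome 9, 79446895 to 79446954) read 8.24 and 8.59, then 10.94 and 10.78, then 11.35 and 11.59, with no overlap between groups. It rose in TIAR KO MEF by 3.05 ± 0.19, 8.29-fold (limma adjusted p = 0.00112). The TIA1 KO difference was 2.44 ± 0.20, 5.44-fold, and 1.29 with common median scaling, where it was still called. Among other settings, its call was lost with the replicate block and when the fold threshold itself was tested. The second probe (79449566 to 79449615) was near background in every group, between 6.55 and 6.97, and its log2 fold change was −0.25 in TIAR KO (limma adjusted p = 0.44) and −0.27 in TIA1 KO MEF.

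Col14a1, a related collagen that limits the growth of fibrils in width, read 7.78 and 6.87, then 6.87 and 7.38, then 8.29 and 8.51 on its brighter probe (chromosome 15, 55347733 to 55347792), which is the probe of the collagen repeat printed above. The second probe (55352264 to 55352323) read 6.75 and 7.04, then 6.51 and 6.78, then 7.74 and 8.31. On both probes TIAR KO MEF was the group well above background on both arrays, and both TIAR KO arrays lay above the other 4. The log2 fold changes in TIAR KO MEF were 1.07 ± 0.32 (limma adjusted p = 0.134) and 1.13 ± 0.24 (limma adjusted p = 0.0552, at least 1.89-fold), neither past the threshold. WT replicate 1 set the first of these: the value was 1.53 without it and 0.61 without WT replicate 2. Those fits leave 1 WT array, so the spread between the WT arrays drops out of the error. With the processed intensities the first value was 3.18 and was not called. In TIA1 KO MEF, near background, the differences were −0.20 ± 0.39 and −0.25 ± 0.20, and the first was 2.15 with those intensities.

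Col16a1, found near fibrillin microfibrils and fibrils of the skin, was read by 4 probes that did not move alike. The brightest (chromosome 4, 129776333 to 129776392) read 14.04 and 12.84, then 15.60 and 15.30, then 15.13 and 14.90. All KO arrays lay above both WT arrays, which were themselves apart. The log2 fold change was 1.58 ± 0.40 in TIAR KO (limma adjusted p = 0.0882) and 2.01 ± 0.45 in TIA1 KO MEF, neither called. The TIAR KO value was 2.17 without WT replicate 1 and 0.98 without WT replicate 2. The TIA1 KO value was 2.61 and 1.41 without these arrays, in the same order, and 0.44 with common median scaling. The second probe (129776460 to 129776519), from the same end of the gene, gave 1.06 ± 0.38 (limma adjusted p = 0.201) and 1.26 ± 0.32. The third probe (129756457 to 129756516), from the collagen repeat printed above, lay between 8.35 and 9.10 on all arrays, with log2 fold changes of −0.18 and −0.07. The fourth (129770686 to 129770745) targets another transcript of the gene and read 8.57 and 8.58, then 8.57 and 8.66, then 6.92 and 7.14, near background in TIAR KO MEF. It fell there by 1.55 on the log2 scale with a standard error of 0.15 (limma adjusted p = 0.00508), at least 2.86-fold lower, and differed by 0.04 ± 0.15 in TIA1 KO MEF.

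**Figure D2:**
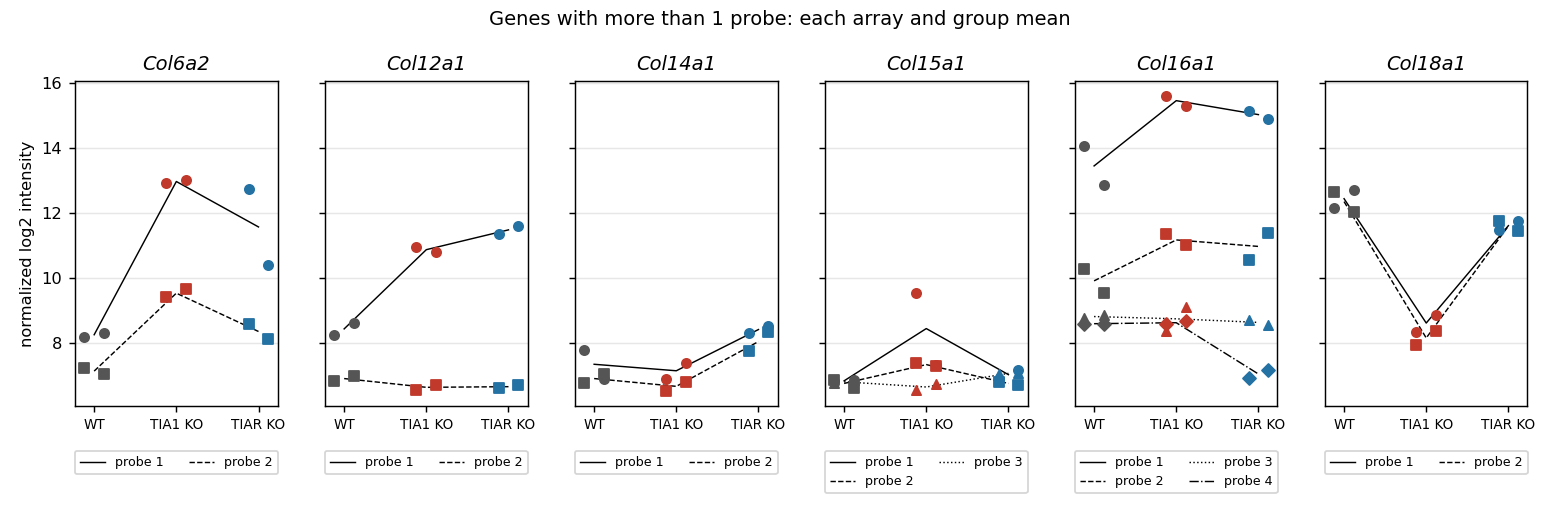
Normalized log2 intensity (vertical axis) of every probe of the 6 genes with more than 1 probe, by group (horizontal axis). Each symbol is an array, each symbol shape a probe, and lines join the group means. The lines of Col18a1 run together and those of Col6a2 in one direction, while only the first probe of Col12a1 and the first 2 of Col16a1 are higher in the KO groups.

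Collagen VII differed between the KO groups. Its gene Col7a1 (chromosome 9, 108886861 to 108886920) read 13.88 and 13.68, then 11.35 and 11.15, then 14.81 and 14.56, so that the TIA1 KO arrays lay below and the TIAR KO arrays above both WT arrays. In TIAR KO MEF the log2 fold change was 0.90 ± 0.17, 1.87-fold (limma adjusted p = 0.0376), which is short of the fold threshold. It was 0.46 when arrays were scaled to a common median. For TIA1 KO MEF the difference was −2.53 ± 0.17, 5.79-fold lower.

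Col8a1, a chain of collagen VIII, was not called in either KO group. Its probe (chromosome 16, 57624471 to 57624530) read 11.16 and 11.62, then 11.16 and 11.61, then 10.76 and 10.87. The TIA1 KO arrays fell within the range of the WT arrays, and the TIAR KO arrays lay below it. The log2 fold change was −0.57 ± 0.20 in TIAR KO (limma adjusted p = 0.191) and 0.00 ± 0.26 in TIA1 KO MEF, where scaling to a common median gave −1.48, which was called.

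Of the basement membrane pair, Col18a1 was well above background in WT MEF and lower in TIA1 KO MEF. Its brighter probe (chromosome 10, 76514926 to 76514985), 343 kb from that of Col6a1, read 12.15 and 12.70, then 8.33 and 8.86, then 11.47 and 11.74. The second probe (76515790 to 76515849) read 12.65 and 12.02, then 7.92 and 8.36, then 11.74 and 11.43. On both probes the 3 groups did not overlap, with WT highest. The TIA1 KO differences were −3.83 ± 0.30, 14.2-fold lower, and −4.20 ± 0.30, 18.3-fold lower. In TIAR KO MEF they were −0.82 ± 0.23 (limma adjusted p = 0.116) and −0.75 ± 0.26 (limma adjusted p = 0.181), not past the threshold, though the first was called at −1.21 with arrays scaled to a common median. Col6a1 and Col18a1, 343 kb apart on chromosome 10 with other genes between them, thus differed from WT in opposite directions in TIA1 KO MEF.

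Col15a1, the close relative of Col18a1, was near background on most arrays. Its brightest probe (chromosome 4, 47283786 to 47283845), from the collagen repeat, read 6.80 and 6.85, then 9.54 and 7.32, then 6.87 and 7.14, with TIA1 KO replicate 1 the single array well above background. The log2 fold change was 0.18 ± 0.16 in TIAR KO (limma adjusted p = 0.632) and 1.60 ± 0.78 in TIA1 KO MEF, the latter 0.49 without TIA1 KO replicate 1. The other 2 probes (47325261 to 47325320 and 47325273 to 47325332) were near background in all groups, with log2 fold changes of 0.01 and 0.26 in TIAR KO and 0.59 and −0.16 in TIA1 KO MEF.

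In TIAR KO MEF, 5 of the 19 probes were called (26.3%), 4 higher and 1 lower, where 5.76% of all probes were called, 3.39% higher and 2.37% lower. Counting only probes that both arrays of WT or of TIAR KO MEF rated well above background, 12.7% were called. All 5 called collagen probes were among these, but not all of the 19, so 12.7% and 26.3% rest on unlike sets. By the brightest probe of each gene, 3 of the 10 genes rose (Col6a1, Col6a3 and Col12a1), none fell and 7 were not called, against 7.18% of all genes called. The median log2 fold change over the 10 genes was 1.32, against −0.01 over all genes. On 12 probes both TIAR KO arrays lay above both WT arrays and on 6 below, where this held for 21.9% and 27% of all probes.

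In TIA1 KO MEF, where the rule used the contrast and nothing is read from the count, 8 of the 19 probes were called (42.1%), 5 higher and 3 lower, with 3.54% of all probes called, 2.18% higher and 1.36% lower. By the brightest probe, Col6a1, Col6a2, Col6a3 and Col12a1 were called higher and Col7a1 and Col18a1 lower, with 4.51% of all genes called. These calls are lost without either WT array or with the processed intensities, where limma calls no probe at all. With the processed intensities 27765 probes had an unadjusted p under 0.05. Over all alternatives, also those that keep the calls, the differences keep their direction. They lie between 7.21 (common median scaling) and 11.26 (processed intensities) for Col6a3 and between −5.15 and −3.56 for Col18a1. Both TIA1 KO arrays lay above both WT arrays on 9 probes and below on 5, as on 26% and 39.2% of all probes. Between the KO groups, 5 of the 19 probes were called, with 3.35% of all probes called. The 3 that were higher in TIAR KO MEF (1.72% of all probes) were Col7a1, at 3.44 ± 0.18, and both Col18a1 probes, at 3.01 ± 0.25 and 3.44 ± 0.24. The 2 that were lower (1.63% of all probes) were Col6a3 and the fourth probe of Col16a1, at −1.59 ± 0.17. Limma calls none of them without either TIAR KO array (6318 and 6402 of all probes at an unadjusted p under 0.05).

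**Figure D3:**
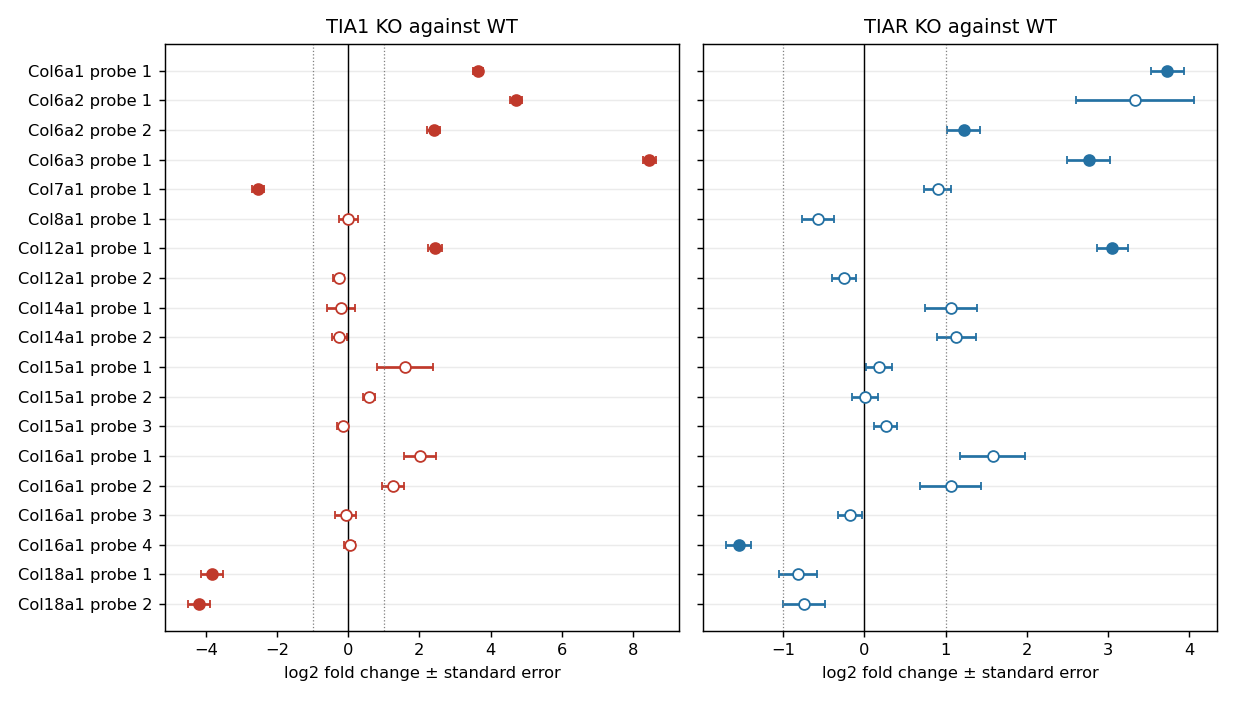
Log2 fold change (horizontal axis, with its standard error) of each of the 19 probes in TIA1 KO MEF (left) and TIAR KO MEF (right) against WT MEF. Filled points were called, dotted lines mark the 2-fold threshold, and the scales of the panels differ. Both panels share the WT arrays. Col6a3 is the highest point on the left at 8.47 and Col6a1 on the right at 3.73.

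Across the 6 arrays, the genes whose pattern was most like that of Col6a3 were Ripk3 (Pearson r = 0.9994), Klhl30 (0.9969), Sulf2 (0.9961), Thbs2 (0.9948) and Pcdh19 (0.9947), among 528 probes that varied by at least 4 on the log2 scale and were well above background in a group. Ripk3, a kinase of necroptosis, read 6.58 and 6.53, then 13.79 and 13.85, then 8.89 and 9.29, the same order of groups as Col6a3. Thbs2, a matrix protein of the thrombospondin family, read 7.19 and 6.97, then 12.54 and 12.56, then 8.39 and 8.44. Most like Col14a1 were Scube3 (r = 0.9264), an unnamed probe (0.9193), Slc6a12 (0.9157), a lincRNA probe of chromosome 15 (0.9114) and 1810014F10Rik (0.9113). These values describe 6 arrays in 3 groups, in which any gene with the same order of group means correlates.

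The genes of the same pathway were counted from lists that were written with earlier results of these arrays known. Counts go by the brightest probe of each gene, and the medians below stand beside medians over all genes of −0.01 in TIAR KO and −0.07 in TIA1 KO MEF. Over all genes, 7.18% were called in TIAR KO and 4.51% in TIA1 KO MEF, and each list's count stands beside these shares. As for the collagen genes, no TIA1 KO call of the lists remained without either WT array or with the processed intensities. Of 12 other members of these collagen families, 11 were on the array and all but Col8a2 and Col9a2 were not well above background on both arrays of WT or TIAR KO MEF. Col8a2, the partner chain of Col8a1 in collagen VIII, read 6.63 and 7.04, then 7.11 and 8.11, then 9.96 and 9.58. It rose in TIAR KO MEF by 2.94 ± 0.22 (limma adjusted p = 0.00206), at least 6.31-fold, and was the single gene of this list called there, and limma called none in TIA1 KO MEF (1 at an unadjusted p under 0.05). Col6a4, Col6a5 and Col6a6, the chains that can replace Col6a3 in collagen VI, were not called in either comparison and lay between 6.48 and 8.19.

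Enzymes and chaperones that fold collagen in the endoplasmic reticulum were higher in part. Of 16 genes, 6 rose, 1 fell and 9 were not called in TIAR KO MEF, with a median log2 fold change of 0.54 over the list, and 4 were called higher and none lower in TIA1 KO MEF, with a median of 0.62. P4ha2, a prolyl hydroxylase subunit, read 13.00 and 13.02, then 14.67 and 14.52, then 14.63 and 14.70, a rise of 1.65 ± 0.14 in TIAR KO MEF (limma adjusted p = 0.00293) and a difference of 1.58 ± 0.15 in TIA1 KO MEF. P4ha3, another such subunit, rose by 1.98 ± 0.29 in TIAR KO MEF (limma adjusted p = 0.0171). Plod2, the lysyl hydroxylase of collagen telopeptides, fell by 1.25 on the log2 scale in TIAR KO MEF (limma adjusted p = 0.00884), and Leprel2, a prolyl hydroxylase family member, differed by 1.84 ± 0.15 in TIA1 KO MEF. The other 4 genes that rose in TIAR KO MEF, P4hb, Lepre1, Leprel1 and Fkbp10, did so by 1.0 to 1.06, close to the fold threshold, and between 0 and 6 genes of the list were called higher there under the alternatives. In TIA1 KO MEF the list turned when arrays were scaled to a common median, which moves the median of all probes to −0.67: none was called higher and 4 lower, the list median was −0.68, and Crtap, Fkbp10 and P4ha2 changed sign. With the replicate block limma called none of the list (9 at an unadjusted p under 0.05).

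Genes that trim and cross-link collagen outside the cell held larger differences. Of 13 genes, 5 rose, none fell and 8 were not called in TIAR KO MEF, with a median of 0.40, and 6 were called higher and 1 lower in TIA1 KO MEF, with a median of 1.03. Adamts2, which removes the N-propeptide of fibrillar procollagens, read 6.49 and 6.47, then 11.00 and 10.49, then 14.36 and 14.21, with no overlap between groups. It rose by 7.80 ± 0.14 in TIAR KO MEF (limma adjusted p = 0.000176), at least 168-fold. The second Adamts2 probe rose by 2.01 ± 0.14 there (limma adjusted p = 0.00161), at least 3.47-fold. In TIA1 KO MEF that probe was near background, at 7.02 and 7.35, and its difference of 0.40 ± 0.19 was not called. Adamts14, of the same function, read 8.41 and 8.39, then 13.84 and 13.79, then 13.50 and 13.45, a rise of 5.07 ± 0.14 in TIAR KO MEF (limma adjusted p = 0.000186). Its second probe gave 0.33 there. Lox, the enzyme that cross-links collagen and elastin, was 4.34 ± 0.17 higher in TIA1 KO MEF and rose by 2.21 ± 0.17 in TIAR KO MEF (limma adjusted p = 0.00237). Pcolce2, an enhancer of procollagen C-proteinase, was 2.05 lower in TIA1 KO MEF, at 11.41 and 10.97 against 13.00 and 13.47 on the WT arrays. With common median scaling the TIA1 KO median of the list was −0.12, 3 genes were called higher and 1 lower, and Loxl4, 1.03 higher as reported, changed sign.

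Of 18 receptors and partners of collagen VI, 9 rose, 1 fell and 8 were not called in TIAR KO MEF, with a median of 1.02, and 6 were called higher and none lower in TIA1 KO MEF, with a median of 0.90. Dcn, the small proteoglycan decorin that binds collagens I and VI, read 6.57 and 6.62, then 9.24 and 9.29, then 15.67 and 15.82, and rose by 9.15 ± 0.15 in TIAR KO MEF (limma adjusted p = 0.000176). Fmod, fibromodulin, rose there by 5.95 ± 0.18 (limma adjusted p = 0.000206). Dcn and Fmod were each well above background on only 1 WT array, so the size of both rises depends on how low WT is set. Bgn, biglycan, differed most in TIA1 KO MEF, by 3.43 ± 0.24, followed by Fn1, fibronectin, by 2.74 ± 0.16. Antxr1, a cell surface receptor that binds collagen VI, read 10.65 and 10.09, then 13.20 and 12.93, then 13.98 and 13.92, a rise of 3.58 ± 0.22 in TIAR KO MEF (limma adjusted p = 0.00113) and a difference of 2.69 ± 0.26 in TIA1 KO MEF. Cspg4, the NG2 proteoglycan, a collagen VI receptor of pericytes and glial precursors, read 10.31 and 10.60, then 12.93 and 12.99, then 7.19 and 7.25, below WT in one KO group and above it in the other. It fell by 3.24 on the log2 scale in TIAR KO MEF (limma adjusted p = 0.000661) and was 2.50 ± 0.18 higher in TIA1 KO MEF. The TIA1 KO median of the list was 0.05 with common median scaling, with 4 genes called higher and 1 lower, and 2.28 with the processed intensities. 

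**Figure D4:**
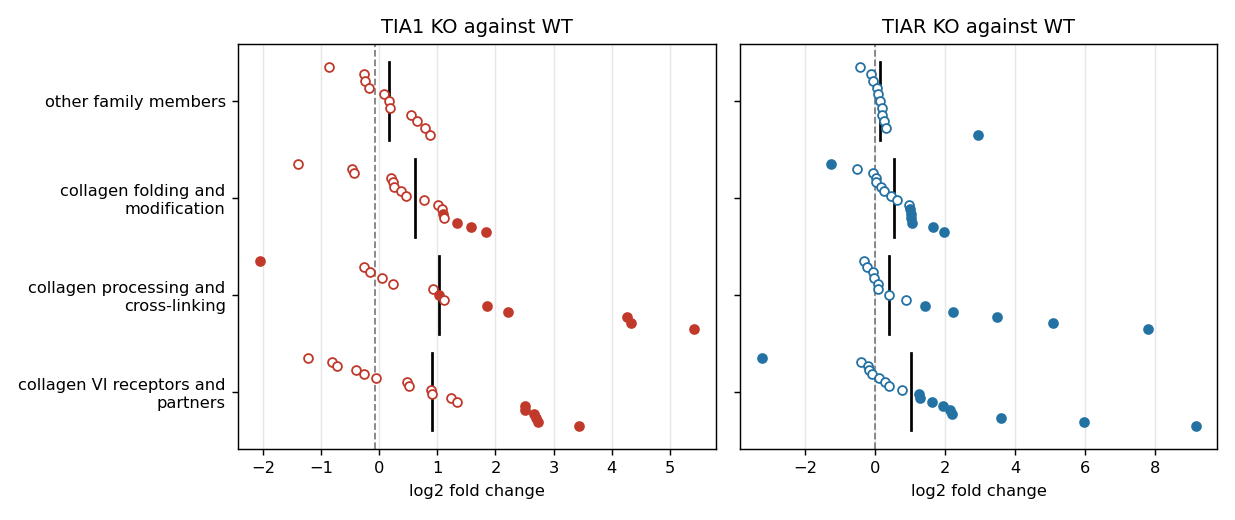
Log2 fold change (horizontal axis) of the brightest probe of each gene of 4 lists (vertical axis), in TIA1 KO MEF (left) and TIAR KO MEF (right) against WT MEF. Each point is a gene, filled where called, black bars are list medians and the dashed line is the median of all genes, near 0. The furthest points are Dcn at 9.15 in TIAR KO MEF and Adamts14 at 5.42 in TIA1 KO MEF.

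Markers of fibroblasts were higher in part in both KO groups. Of the 12 fibroblast markers, 9 rose and none fell in TIAR KO MEF, where 7.18% of all genes were called. In TIA1 KO MEF 7 were called higher, with 4.51% of all genes called. The list holds matrix genes itself. The log2 fold changes in TIAR KO and TIA1 KO MEF were 6.60 ± 0.50 and 6.32 ± 0.21 for Col3a1, and as pairs in the same order they were, for Col1a2, 2.28 and 2.50, for Col1a1 2.40 and 2.06, for Fn1 2.20 and 2.74, and for Fbn1 1.26 and 2.50. Among those that are not matrix genes, the values were 3.81 and 3.60 for Pdgfrb, 5.21 and 3.75 for Pdgfra, 1.96 and 2.40 (not called) for Prrx1, and 7.98 and 0.49 (not called) for Thy1. Vim at 0.49 and 0.44, Twist1 at 0.56 and 0.54, and S100a4 at 0.43 and 0.01 were not called in either group. Their part in the differences of the collagen genes was not tested.

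Markers of other cell types were at lower summed levels. The summed linear level of 8 epithelial markers was 1520 to 1560 in WT, 1500 to 1920 in TIA1 KO and 2820 to 2870 in TIAR KO MEF, with Epcam near background in WT and TIAR KO MEF, and Krt8, Krt18, Krt14, Cdh1 and Esrp1 well above background in at least 1 group. The 6 endothelial markers summed to 3200 to 3530, 3550 to 3750 and 3690 to 4070, with Cdh5 and Emcn near background in every group and Kdr, Pecam1 and Vwf detected. The 6 haematopoietic markers summed to 10400 to 11000, 18600 to 21100 and 9750 to 9820, with Ptprc and Emr1 near background in every group and Cd14, Cd68, Csf1r and Itgam detected. The 6 skeletal muscle markers summed to 819 to 842, 1990 to 2230 and 3310 to 4310, with Myod1, Myog, Ckm and Myh3 near background in every group, and with Acta1 and Des detected. The 5 adipocyte markers summed to 1860 to 2190, 6970 to 7760 and 4100 to 4280, with Adipoq and Cidec near background in every group and Pparg and Fabp4 detected. The 6 chondrocyte markers summed to 1340 to 1370, 4630 to 5190 and 1490 to 1510, with Matn1 near background in every group. Of this list only Col2a1, the fibrillar collagen of cartilage, was called in TIA1 KO MEF, 4.96 ± 0.16 higher, while Sox9 at −1.0, Col11a2 at −0.55, Comp at −0.30 and Acan at −0.29 were not called and the list median was −0.30. Other markers called in TIA1 KO MEF were Pparg, 4.13 higher, Acta1, 2.80, Itgam, 1.82, and Krt8, 1.23. Those called in TIAR KO MEF were Acta1, which rose by 3.83, Krt18, by 2.72, Pparg, by 2.12, Cdh1, by 1.58, Krt8, by 1.23, and Des, by 1.15, and Cd14, which fell by 1.32. The part of such cells in the collagen differences was not tested.

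**Figure D5:**
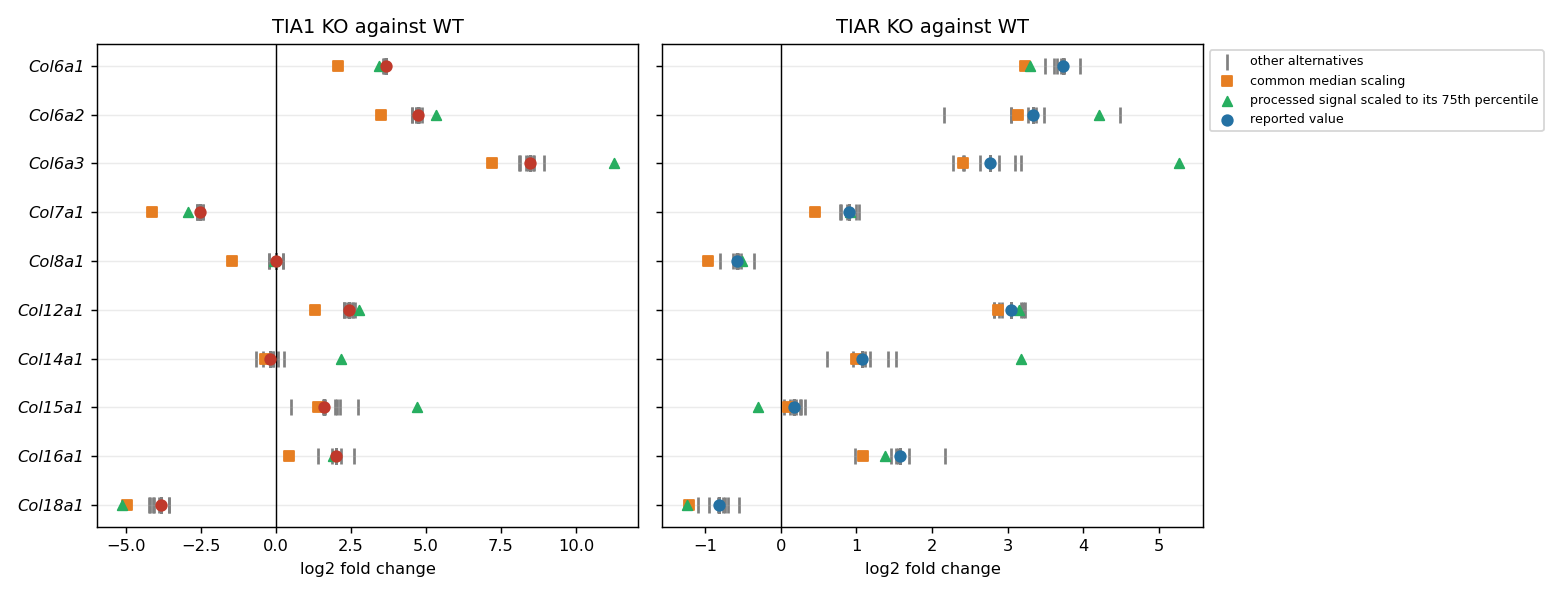
Log2 fold change (horizontal axis) of each gene's brightest probe in TIA1 KO MEF (left) and TIAR KO MEF (right) against WT MEF, as reported (red on the left, blue on the right) and under each alternative processing. Orange squares are arrays scaled to a common median, green triangles processed intensities from the scanner software, each array set to its 75th percentile, and grey ticks the other alternatives. Col6a1, Col6a2, Col6a3 and Col12a1 lie to the right of 0 under all alternatives in both panels, whereas Col8a1, Col14a1 and Col15a1 cross 0 in at least 1 panel.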

How the data were processed

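Total RNA was labelled with Cy3 and hybridized to 6 arrays. The authors deposited scanner files (Feature Extraction 10.7.3.1, mm9) with the intensity of every spot and its local background, processed intensities and quality flags, and a table of log2 values that they normalized with limma (version not given in the sources used here). The deposited flags, whose unit is a yes or no per spot, served for background and outliers only.

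Mean intensities were background-corrected by normexp (offset 50), log2-transformed, adjusted by loess against the arrays' mean, then quantile normalized. Control and outlier spots were dropped, spots of the same probe averaged, and dim probes kept. These values correlated with the authors' log2 table at 0.997 to 0.999, and that table was used as an alternative. A probe was rated well above background where at least 50% of its spots were. Comparisons were fitted on their own 4 arrays with limma 3.58.1 in R 4.3.3 (lmFit, eBayes, Benjamini-Hochberg over all probes), tested on simulated data. Sequences were matched by symbol to RefSeq (GRCm38.p6) with Python 3.11.15. The number of arrays limits the precision.

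All 10 genes were named by their brightest probe, with Tia1, Tial1 and Gapdh (0.09 in TIAR KO and −0.04 in TIA1 KO MEF), the called genes of each list with the largest fold changes, the 5 genes most like Col6a3 or Col14a1, and detected markers. Members and lists were chosen with earlier results of these data known. Alternatives were other background corrections, scalings, filters, fits and a replicate block, the authors' table, and each array left out.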

Additional observations from a re-analysis of the deposited data

Results flagged for a closer look

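Col7a1 moved in opposite directions in the KO groups. Both TIA1 KO arrays lay below both WT arrays (−2.53 on the log2 scale) and both TIAR KO arrays above them (0.90), a gap of 3.44 between the KO groups. The difference was not tested on arrays independent of the choice of genes.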

How the results depend on the processing

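Each array was left out in turn, and 12 other settings were tried. In TIAR KO MEF the count of called collagen probes, 5 as reported, was 8 with common median scaling, 3 with the brightest probe of each gene and 3 when the fold threshold itself was tested (treat), and 4 to 6 with 1 array left out. Over all probes, 3206 as reported, treat gave 1016, and leaving out 1 array 2307 to 2797. Col6a1, Col6a3 and Col12a1 were called under every one of these alternatives. In TIA1 KO MEF the collagen count, 8 as reported, was 0 with processed intensities and 0 to 9 with 1 array left out. The count over all probes, 1969 as reported, was 0 with processed intensities (27765 at an unadjusted p under 0.05, 15 of them collagen probes), 15801 with common median scaling, of which 11.9% were higher (61.6% as reported), 3986 with the 3 groups fitted together, 440 with treat, 1309 with the authors' table and 0 to 10735 with 1 array left out. It was 0 without WT replicate 1 and without WT replicate 2 (7202 and 7415 at an unadjusted p under 0.05), and 3068 and 10735 when TIA1 KO replicates 1 and 2 were left out. The share of higher calls in TIAR KO MEF was 58.8% as reported and 34.4% with common median scaling. Between the KO groups, the collagen count of 5 was 3 with processed intensities, 8 with common median scaling, 8 without dim probes, 3 with the brightest probe, 3 with treat, and 0 to 9 with 1 array left out. It was 0 without either TIAR KO array (6318 and 6402 at an unadjusted p under 0.05). The cause of these shifts was not tested.

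The replicate numbers did not pair the arrays, since deviations of same-numbered arrays had correlations of 0.078, 0.03 and −0.072. With the replicate block, collagen probes called were 8 in TIAR KO MEF, 7 in TIA1 KO MEF and 0 between the KO groups (10675 of all probes at an unadjusted p under 0.05), and all probes called were 3302 and 671. Over the genes' single values, 416 kept direction and call, 19 gained and 32 lost the call, 10 changed sign without a call on either side and none reversed. With 1 array left in a group, it was assumed to vary like the other group. Levels near background, as of Col6a3 in WT MEF, are limits set by the array.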

Other observations

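The surroundings of the collagen VI genes were read after their values were seen. Within 1 Mb to each side of the Col6a3 probe lie 22 named genes with Col6a3 itself, of which 8 were called higher and none lower in TIAR KO MEF, and 4 higher and none lower in TIA1 KO MEF. Over all genes 7.18% and 4.51% were called in these comparisons, and Col6a3 itself is among the called. Those in TIA1 KO MEF were Col6a3, Cxcr7 (4.10 higher, −0.93 in TIAR KO MEF), Klhl30 (4.54) and Fam132b (3.23). Klhl30, 595 kb from Col6a3, is also the gene with the next best likeness to it across arrays after Ripk3. Per2, 649 kb away, differed by −1.78 in TIA1 KO MEF and was not called. Within 500 kb of the Col6a1 probe lie 14 genes, of which Col6a1 and Pcbp3 (1.21) were called higher in TIAR KO MEF, and Col6a1 and Col6a2 higher and Col18a1 lower in TIA1 KO MEF. The 9 genes between S100b and Ftcd, on the far side of Col6a2, were not called in either comparison.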
